A study of Mus musculus with 15 samples.

Results

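The 9 genes described here encode the CD8 coreceptor, the CD3 and ζ chains of the TCR complex, and the first kinases and adaptor of TCR signalling. They are Cd8a, Cd8b1, Cd3d, Cd3e, Cd3g, Cd247, Lck, Zap70 and Lat, and they were chosen for these roles, with earlier results of these data known. All 9 were among the 11262 genes of the table of naïve and activated cells and among the 11211 genes of the CTL table. No member was thus lost to the authors' filter on low counts in the first table, and whether the CTL table was filtered was not stated. RNA sequencing was used to follow mRNA in P14 mouse CD8+ T cells, which carry a transgenic TCR specific for the LCMV peptide gp33-41, and the question was what signalling by PI3K p110δ adds to the response to antigen. The data are 15 libraries in 5 groups of 3 biological replicates. In the first table, lymph node cells of 3 female mice aged 9 to 13 weeks were pooled for each replicate and the pool was divided between 3 conditions. Naïve cells were sorted ex vivo as TCRβ+CD8+ cells of naïve surface phenotype, CD44 lo among its marks. TCR cells were activated for 24 h with gp33-41 at 100 ng/ml together with IL-2 at 20 ng/ml and IL-12 at 2 ng/ml, and PI3Kdi cells received the same plus the p110δ inhibitor IC87114 at 10 µM; both were sorted as CD8+. CTL of the same P14 transgenic background were activated for 48 h and grown for 4 further days in IL-2 at 20 ng/ml, then washed and kept for 24 h either with IL-2 added back or without it; the sex and age of their donors and any sort of the CTL were not stated in the sources used here.

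A T cell recognises peptide on MHC through the αβ chains of its TCR, which have no signalling parts of their own. The CD3 chains and the ζ chain carry the tyrosine motifs that are phosphorylated once the receptor is engaged, and the CD8 coreceptor binds MHC class I and brings the kinase LCK to the complex. LCK phosphorylates the motifs, ZAP-70 docks on them and phosphorylates the adaptor LAT, and LAT gathers the enzymes that raise calcium and turn on RAS and protein kinase C.

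All levels are FPKM, fragments mapped to a gene scaled to the length of its exons and to the size of the library, so levels of different genes can be compared within a library. Fold changes are on the scale of log2(FPKM + 0.1) and come from limma with p-values adjusted over all genes of a table. A gene was called changed past an adjusted p of 0.05 with a fold change above 2 or below 0.5, and a smaller change past the adjusted p is said to have passed the adjusted p only. The tables were normalised separately, so tests were made within a table only and levels set across tables are a description. The reads behind each library are unknown. In these bulk samples, fewer cells expressing a gene and less of its RNA per cell cannot be told apart. Being scaled to the library, FPKM gives the level of a gene relative to the other RNA of its sample. Falls and rises given here are of that relative level. The total RNA per cell is unknown, so a lower FPKM need not mean fewer copies in a cell.

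The labelled cell type was checked against markers. Cd8a, Cd8b1 and Cd3e, the CD8 T cell markers, are also members, so their levels repeat the member results. They were above 0 in every library. Their summed FPKM was 2113, 2266 and 2420.3 in naïve, 535, 508 and 474 in TCR and 599, 639 and 538 in PI3Kdi libraries. In CTL the sum was 537, 607 and 554 with IL-2 and 973, 893 and 968 without it. Markers of T cell state were examined as well. Tcf7, of the naïve state, averaged 946 FPKM in naïve, 126 in TCR and 166 in PI3Kdi cells, and Ccr7 182, 131 and 198. Il7r averaged 83.6, 9.38 and 30.8 in the same order, Klf2 226, 0.743 and 14.4, Lef1 171, 32.4 and 31.7 and S1pr1 237, 3.79 and 3.96. All 6 were lower in TCR than in naïve libraries with no overlap, as the members were. Ccr7, Il7r and Klf2 were higher in PI3Kdi than in TCR libraries, and the other 3 overlapped. In CTL all 6 were higher without IL-2, as several members were: Tcf7 averaged 15.3 with IL-2 and 599 without it, Ccr7 38.2 and 108, Il7r 46.2 and 411, Klf2 2.43 and 35.4, Lef1 36.5 and 103 and S1pr1 8.11 and 122.

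Activation and effector markers followed other patterns. Those of activation summed to 131, 126 and 145 FPKM in naïve, 3587, 3655 and 3636 in TCR and 1366, 1415 and 1457 in PI3Kdi libraries, and to 1042, 1121 and 1098 in CTL with IL-2 against 263, 263 and 213 without it. The difference between the TCR and PI3Kdi sums was mostly Ifng, which averaged 0.0867 in naïve, 2179 in TCR and 32.4 in PI3Kdi cells. Tnfrsf9, at 1.5, 159 and 23.1 in the same order, and Cd44, at 7.56, 45 and 10.5, were also lower in PI3Kdi than in TCR libraries. Il2ra averaged 0.68, 557 and 563 and Myc 70.6, 349.9 and 303, with TCR and PI3Kdi ranges overlapping. Irf4 averaged 1.47, 289 and 425 and was higher in PI3Kdi than in TCR libraries, while Cd69 overlapped between all 3 groups at 51.8, 46.6 and 55.6. In CTL, Irf4 overlapped, Cd44 was higher without IL-2 (59.7) than with it (45.6), and the other 5 were lower without it. Cytotoxic effector markers summed to 51.5, 53.3 and 52.3 in naïve, 4164, 3010.4 and 2598 in TCR and 621, 408 and 352 in PI3Kdi libraries, and to 14189, 15423 and 17329 in CTL with IL-2 against 4026, 4155 and 3773 without it. The TCR sum was nearly all Gzmb, which averaged 0.407 in naïve, 3147 in TCR and 379 in PI3Kdi cells. Prf1 was lower in both activated groups, at 43.6, 18.1 and 6.07 in that order, and Gzma was low in all 3 groups, at 4.16, 2.14 and 1.7, as was Ccl5, at 2.89, 3.71 and 2.85. Tbx21 stood at 1.32, 86.4 and 70.4. In CTL 3 of the 5 were lower without IL-2: Gzmb averaged 10277 with IL-2 and 428 without it, Gzma 4947 and 1857, and Prf1 321 and 13.9. The other 2 were higher without it, Ccl5 at 84.6 with IL-2 and 1655 without it and Tbx21 at 16.6 and 30.9.

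Markers of other cell types stood below the sum of the CD8 T cell markers, the myeloid and dendritic cell list coming nearest, in CTL with IL-2. Of 9 B cell markers, 4 were in the first table, none at 0 throughout a group, and Cd79b was the most abundant. Cd79b stood at 19.6, 21.8 and 19.6 FPKM in naïve, 2.99, 2.58 and 3.48 in TCR and 2.79, 3.31 and 3.77 in PI3Kdi libraries. In the CTL table Cd79b alone was held, at 6.3, 3.96 and 2.74 with IL-2 and 20.6, 15.7 and 10.8 without it. It was thus higher in naïve cells than in both activated groups, and higher in CTL without IL-2. Ms4a1 averaged 0.733 in TCR and 0.0633 in PI3Kdi cells, lower in PI3Kdi with no overlap. Of 5 stromal and endothelial markers only Pecam1, which T cells also express, was held. It stood at 55.6, 66 and 60.3 FPKM in naïve, 2.25, 2.55 and 3.49 in TCR and 4.73, 5.79 and 8.2 in PI3Kdi libraries, and at 29.1, 30.5 and 22.5 in CTL with IL-2 against 52.9, 50.3 and 62.4 without it. Cd79b and Pecam1 were thus lower in TCR than in naïve libraries and higher in CTL without IL-2, as several members were, Pecam1 was also higher in PI3Kdi than in TCR libraries, and their part in the member differences was not tested.

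Of 13 myeloid and dendritic cell markers, 5 were in the first table and 8 in the CTL table, none at 0 throughout a group, with Cst3 the most abundant in all 5 groups. They summed to 55.4, 91.6 and 69.4 FPKM in naïve, 84.3, 52.3 and 67.8 in TCR and 51.7, 47.5 and 43.6 in PI3Kdi libraries, and to 129, 151 and 141 in CTL with IL-2 against 152, 162 and 142 without it. These sums overlapped between naïve and TCR libraries and between the CTL groups, but single markers did not all do so. The PI3Kdi sums lay below all naïve and all TCR sums. In CTL without against with IL-2, Itgam averaged 4.09 and 0.293 FPKM, Itgax 4.55 and 0.31, Fcgr3 14.9 and 2.02, Cst3 93.4 and 65.4 and Cd74 10.7 and 5.95, each higher without IL-2 with no overlap, as several members were. Fcer1g, at 9.48 and 47, and H2-Ab1, at 14.2 and 18.5, were lower without IL-2, and H2-Aa overlapped. In the first table H2-Aa averaged 3.09 in TCR and 0.567 in PI3Kdi cells, H2-Ab1 5.07 and 0.867, and Cd74 16.1 and 3.12, all lower in PI3Kdi with no overlap, where no member was. The part of these markers in the member differences was not tested.

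The remaining lists were of other lymphocytes and of erythroid cells. Of 3 markers of CD4 T and regulatory T cells, 2 were held in each table, none at 0 throughout a group. They summed to 0.1, 0.37 and 0.28 in naïve, 0.75, 0.73 and 0.67 in TCR and 1.4, 1.36 and 1.48 in PI3Kdi libraries, and to 17, 21.4 and 16.8 in CTL with IL-2 against 30.2, 29.4 and 25.6 without it. The CTL sum was nearly all Zbtb7b, a transcription factor, while Cd4 itself averaged 0.23 FPKM with IL-2 and 1.4 without it. The 2 γδ T cell markers of the first table, led by Cd163l1 in naïve cells and by Sox13 in the others, summed to 7.49, 5.32 and 5.41 in naïve, 2.46, 1.73 and 1.11 in TCR and 2.41, 2.23 and 1.48 in PI3Kdi libraries. Cd163l1 stood at 1.64, 1.56 and 1.35 in CTL with IL-2 and 2.41, 1.99 and 1.71 without it. Of 5 NK cell markers, 2 were held for CTL only, led by Klrb1c, with sums of 3.55, 2.19 and 3.32 with IL-2 and 5.05, 3.69 and 5.57 without it. Zbtb7b, Cd4, Cd163l1 and Klrb1c were each higher in CTL without IL-2 with no overlap. None of the 5 erythroid markers was analysed here.

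**Figure D1:**
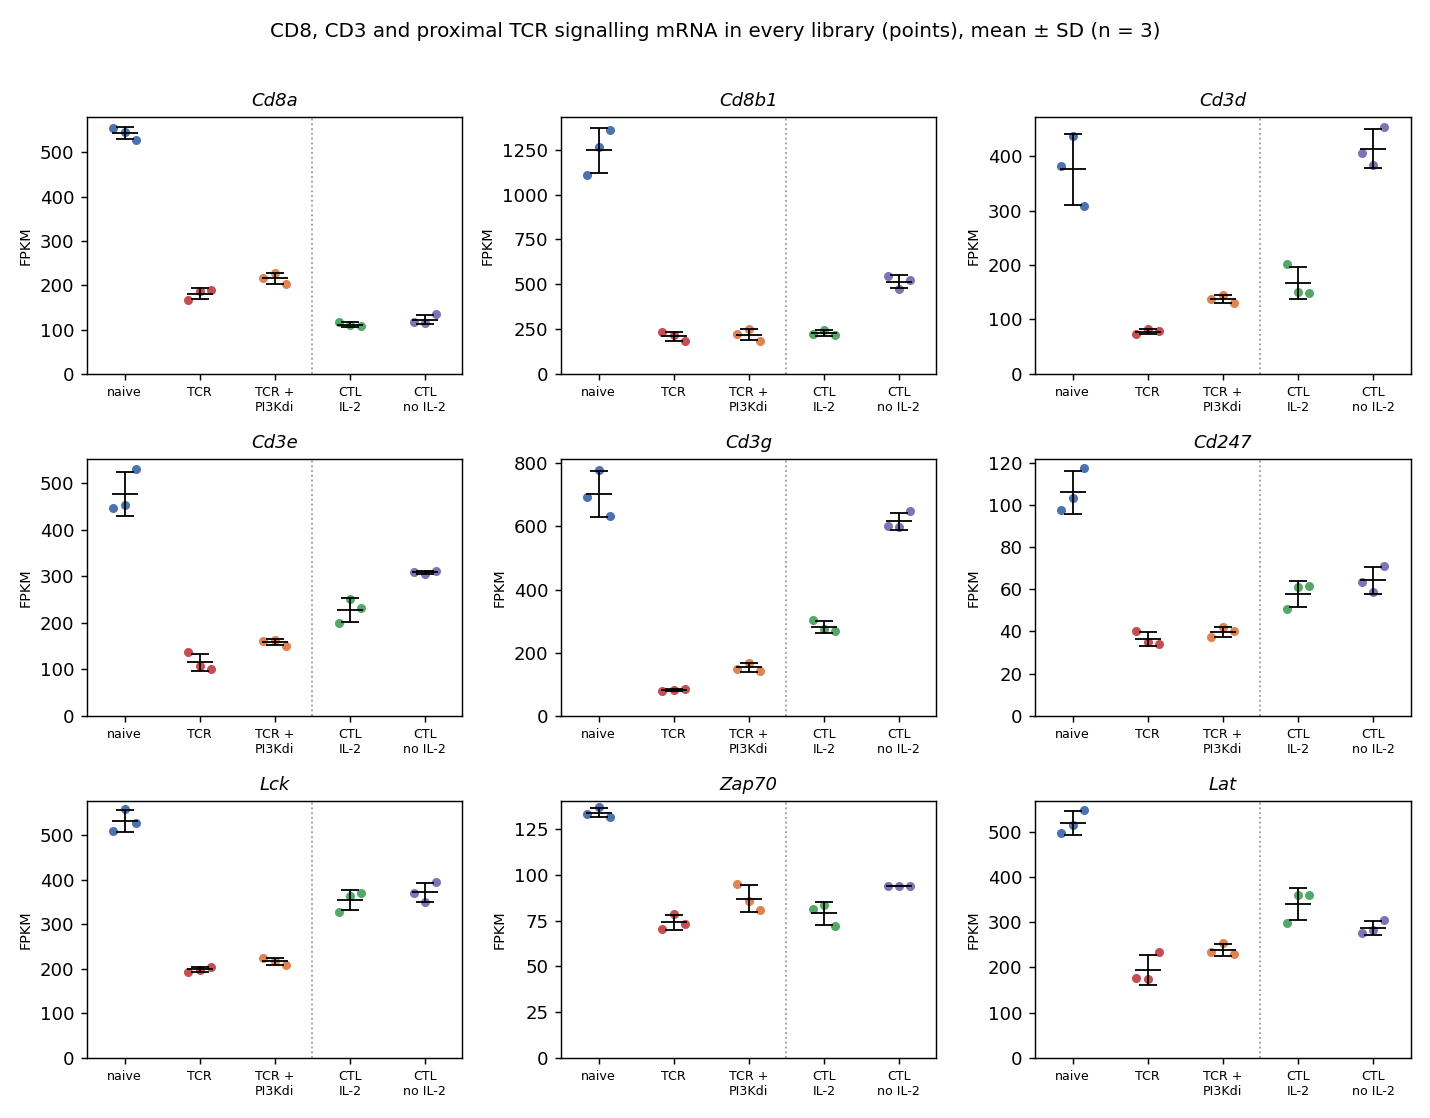
FPKM (y axis, from 0) of each of the 9 genes in every library, with 3 points per group and bars for mean ± SD; the dotted line parts the separately normalised tables. In each panel the naïve points lie above all TCR and PI3Kdi points, and for Cd8b1, Cd3d, Cd3e, Cd3g and Zap70 all CTL points without IL-2 lie above those with IL-2.

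All 9 members fell with activation for 24 h, Cd3g the furthest and Zap70 the least. In TCR against naïve cells, 8 of the 9 members were called lower, beside 23.7% of all 11262 genes, and all 9 were past the adjusted p in that direction, beside 39.8% of all genes. Their log2 fold changes ran from −3.10 for Cd3g to −0.86 for Zap70, with a median of −1.59 where that of all genes was 0.01. In every member the 3 naïve libraries lay above the 3 TCR libraries, as in 40.0% of all genes. Of the markers of other cells, Cd79b, Pecam1, Itgam and Cd163l1 were lower in TCR libraries in the same way, Zbtb7b was higher and the others overlapped.

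With the p110δ inhibitor the genes of the CD3γ, δ and ε chains were higher than with activation alone, by less than 2-fold. In PI3Kdi against TCR cells, 0 of the 9 members were called by limma, beside 5.14% of all genes called in either direction. At an unadjusted p under 0.05 there were 6 members, all higher, beside 16.1% of all genes higher at that p, and 3 were past the adjusted p: Cd3d, Cd3e and Cd3g, beside 9.35% of all genes past it and higher. All 9 differences were positive, from 0.05 to 0.91 on the log2 scale, with a median of 0.25 beside −0.01 for all genes. In Cd8a, Cd3d, Cd3e, Cd3g, Lck and Zap70 the PI3Kdi libraries all lay above the TCR libraries, as in 18.1% of all genes, and in Cd8b1, Cd247 and Lat they overlapped. Of the markers of other cells, Pecam1 and the sum for CD4 T and regulatory T cells were higher in PI3Kdi libraries with no overlap. Ms4a1, H2-Aa, H2-Ab1, Cd74 and the sum for myeloid and dendritic cells were lower.

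In PI3Kdi against naïve cells, 8 members were called lower, beside 21.3% of all genes, and all 9 were past the adjusted p, beside 39.0%. The median of their log2 fold changes was −1.41, beside 0.00 for all genes, and the range was −2.52 to −0.62. By gene they were −1.34 for Cd8a, −2.52 for Cd8b1, −1.44 for Cd3d, −1.59 for Cd3e, −2.19 for Cd3g, −1.41 for Cd247, −1.30 for Lck, −0.62 for Zap70 and −1.12 for Lat. All PI3Kdi libraries lay below all naïve libraries in each of the 9, as in 41.0% of all genes. Of the markers of other cells, Ms4a1, Cd79a, Cd79b, Pecam1, Itgam, H2-Aa, H2-Ab1, Cd74 and Cd163l1 were lower in PI3Kdi libraries in the same way, Foxp3 and Zbtb7b were higher and the others overlapped. The 3 comparisons of the first table share libraries, so they are given side by side and not as separate evidence.

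On withdrawal of IL-2 from CTL, Cd8b1 and the genes of the CD3γ, δ and ε chains rose, while Cd8a, Cd247 and Lck did not pass. In CTL without against with IL-2, 3 members were called higher, beside 14.3% of all 11211 genes: Cd8b1, Cd3d and Cd3g. Past the adjusted p alone, 5 members were higher, beside 35.2% of all genes, with Cd3e and Zap70 added, and 1 was lower, Lat, beside 36.6%. The differences ran from −0.24 to 1.32 with a median of 0.25, beside −0.0009 for all genes. The groups did not overlap in the 5 that rose, as in 37.6% of all genes in that direction, and overlapped in Cd8a, Cd247, Lck and Lat. Of the markers of other cells, Cd79b, Pecam1, Itgam, Itgax, Fcgr3, Cst3, Cd74, Zbtb7b, Cd4, Klrb1c and Cd163l1 were higher without IL-2 too, Fcer1g and H2-Ab1 were lower, and the others overlapped.

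**Figure D2:**
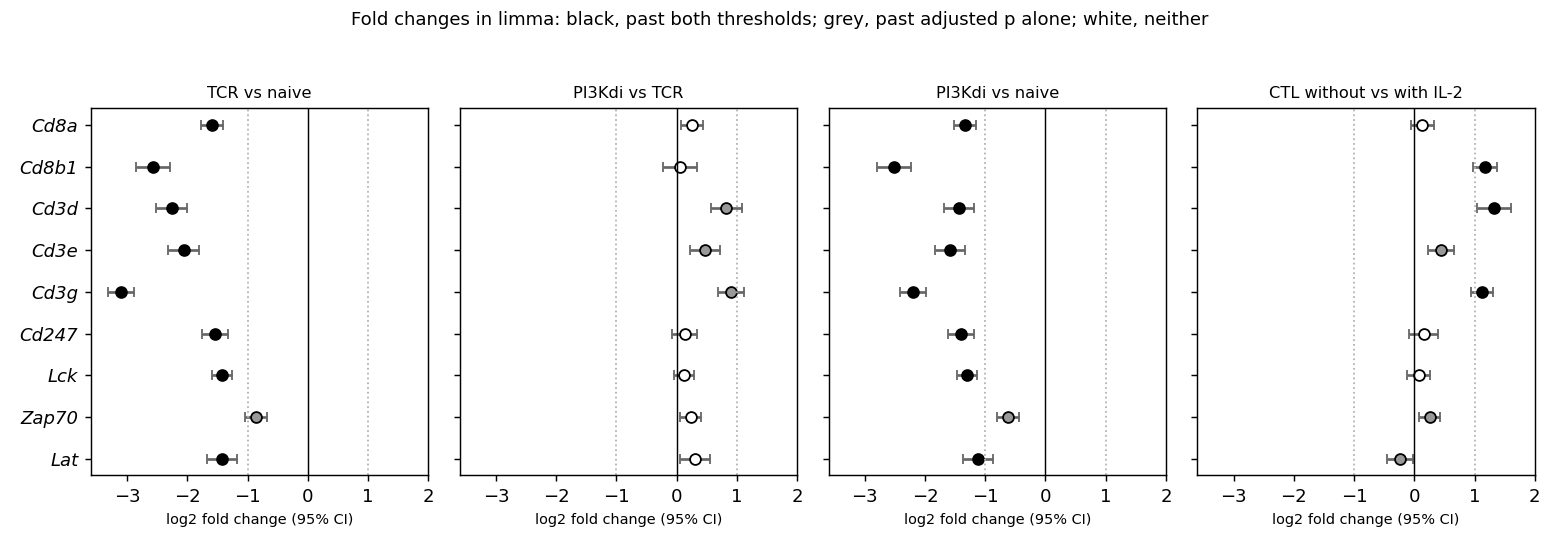
log2 fold change (x axis) of each member in the 4 comparisons, with 95% confidence intervals from limma; dotted lines mark 2-fold. Black points were past both thresholds, grey points past the adjusted p alone and white points past neither. The points lie left of 0 in both comparisons with naïve cells, close to 0 or right of it for PI3Kdi against TCR, and on both sides for CTL.

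The coreceptor is a dimer of CD8α with CD8β, or of CD8α with itself. Cd8a, which encodes the α chain that binds MHC class I and holds LCK, stood at 556, 546 and 529 FPKM in naïve, 167, 187 and 189 in TCR and 216, 228 and 202 in PI3Kdi libraries. All TCR libraries lay below all PI3Kdi libraries, and both groups lay far below the naïve one. Cd8a fell 3.0-fold with activation, a log2 fold change of −1.59 (SE 0.08, adjusted p = 1.08e-08) in limma. PI3Kdi cells differed from TCR cells by 0.25 (SE 0.08, adjusted p = 0.0598), which did not pass, with a 95% confidence interval of 0.07 to 0.43. In CTL, Cd8a stood at 117, 109.6 and 107 FPKM with IL-2 and 118, 115 and 134 without it. These ranges overlapped, and the log2 difference was 0.13 (SE 0.08, adjusted p = 0.172) with an interval of −0.05 to 0.32.

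Cd8b1, which encodes the β chain, was the most abundant member in naïve cells, at 1111, 1266 and 1361 FPKM. It stood at 232, 214 and 184 in TCR and 222, 248 and 185 in PI3Kdi libraries, which overlapped throughout. Cd8b1 fell 5.94-fold with activation, with a log2 fold change of −2.57 (SE 0.13, adjusted p = 7.74e-09). PI3Kdi and TCR cells differed by 0.05 (SE 0.13, adjusted p = 0.821), with an interval of −0.23 to 0.34, and the sign turned without replicate 2 (−0.026). In CTL it stood at 221, 245 and 215 FPKM with IL-2 and 546, 473 and 523 without it. The lowest library without IL-2 was above the highest with IL-2, and Cd8b1 rose 2.26-fold, with a log2 fold change of 1.18 (SE 0.09, adjusted p = 2.88e-06).

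The ratio of the coreceptor chains' mRNA was taken in each library. Cd8b1 over Cd8a was 2.0, 2.32 and 2.57 in naïve libraries, 1.39, 1.14 and 0.974 in TCR libraries and 1.03, 1.08 and 0.916 in PI3Kdi libraries. In CTL the ratio was 1.88, 2.24 and 2.01 with IL-2 and 4.63, 4.11 and 3.9 without it. The naïve values lay above the TCR and PI3Kdi values, and those without IL-2 above those with it, while TCR and PI3Kdi values overlapped. The log2 difference of the ratio was −0.98 for TCR against naïve, −1.18 for PI3Kdi against naïve and 1.05 for CTL without against with IL-2, each at p = 0.1 in a two-sided exact permutation test. For PI3Kdi against TCR it was −0.20, at p = 0.4 in the same exact test, and within each of the 3 pools the ratio was lower in PI3Kdi than in TCR cells, by log2 differences of −0.43, −0.073 and −0.090. Most of this came from the first pool, without which the difference was −0.082. The test takes no account of the pools. Libraries split 3 against 3 cannot give less than 0.1, so no ratio could pass 0.05. In all, 24 such tests were made over 6 ratios, 16 of them at 0.1, and the smallest adjusted p was 0.15.

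The CD3 chains pair as γε and δε dimers on either side of the TCR. Cd3g, encoding CD3γ, stood at 695, 778 and 632 FPKM in naïve, 77.2, 82.9 and 84.6 in TCR and 148, 169 and 143 in PI3Kdi libraries. No group overlapped another, and the PI3Kdi libraries lay nearer to the TCR than to the naïve ones. Of the 9 members Cd3g fell furthest with activation, 8.57-fold, with a log2 fold change of −3.10 (SE 0.10, adjusted p = 2.42e-10), the 455th lowest of 11262 genes. It rose 1.88-fold in PI3Kdi against TCR cells, with a log2 fold change of 0.91 (SE 0.10, adjusted p = 0.000142), below the 2-fold limit. CTL held Cd3g at 303, 275 and 268 FPKM with IL-2 and 601, 599 and 648 without it. These groups were far apart, and Cd3g rose 2.19-fold, with a log2 fold change of 1.13 (SE 0.08, adjusted p = 2.56e-06).

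Cd3d, encoding CD3δ, stood at 382, 438 and 308 FPKM in naïve, 73.3, 81.6 and 78.1 in TCR and 138, 145 and 129.6 in PI3Kdi libraries. The naïve libraries spread widely, with an SD of 64.9, and all lay above the PI3Kdi libraries, which all lay above the TCR libraries. Cd3d fell 4.79-fold with activation, with a log2 fold change of −2.26 (SE 0.12, adjusted p = 9.87e-09). It rose 1.77-fold in PI3Kdi against TCR cells, with a log2 fold change of 0.83 (SE 0.12, adjusted p = 0.000803). CTL levels were 201, 150.3 and 149 with IL-2, replicate 1 being the high one, and 406, 384 and 453 without it. The groups did not overlap, and Cd3d rose 2.5-fold, with a log2 fold change of 1.32 (SE 0.12, adjusted p = 1.11e-05), the largest rise among the 9 members.

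Cd3e, encoding CD3ε, the chain shared by both dimers, stood at 446, 454 and 530.5 FPKM in naïve, 136, 107 and 102 in TCR and 162, 163 and 151 in PI3Kdi libraries. TCR replicate 1 was the highest of its group and still below every PI3Kdi library. Cd3e fell 4.17-fold with activation, with a log2 fold change of −2.06 (SE 0.12, adjusted p = 1.89e-08). It rose 1.39-fold in PI3Kdi against TCR cells, with a log2 fold change of 0.47 (SE 0.12, adjusted p = 0.0172), but not past the adjusted p without replicate 2 (0.236) or without replicate 3 (0.0785); the range over alternatives was 0.0147 to 0.236 in limma. In CTL its level was 199, 252 and 232 with IL-2 and 309.5, 305 and 311 without it. The libraries without IL-2 were tightly grouped above the others, and Cd3e rose 1.36-fold, with a log2 fold change of 0.44 (SE 0.09, adjusted p = 0.002), less than 2-fold.

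Cd247, encoding the ζ chain that forms a homodimer and carries most of the tyrosine motifs of the complex, was the least abundant member in all 5 groups. It stood at 97.6, 103 and 117 FPKM in naïve, 40.3, 35 and 34.1 in TCR and 37.2, 42 and 40.4 in PI3Kdi libraries. The activated groups overlapped each other and lay below the naïve group. Cd247 fell 2.9-fold with activation, with a log2 fold change of −1.54 (SE 0.10, adjusted p = 5.05e-08), and the difference between PI3Kdi and TCR cells was 0.13 (SE 0.10, adjusted p = 0.396), with an interval of −0.08 to 0.35. In CTL it stood at 50.7, 61.3 and 61.6 with IL-2 and 63.3, 58.6 and 71.1 without it. These ranges overlapped, with a log2 difference of 0.15 (SE 0.10, adjusted p = 0.209) in limma. In GENCODE annotation, exons of Cd247 and of Pou2f1, on the opposite strand, overlap over 3007 bases, 56.4% of the exon bases of Cd247. A further transcript, Gm16565, lies on the strand of Cd247 and shares 206 exon bases with it (3.87%). The authors counted the first table by RefSeq annotation, and in the RefSeq release used here Cd247 ends earlier than in GENCODE, so these shares may not hold for the gene as counted. The library kit was stranded, and whether the counting used strand was not stated, so reads of the 2 genes may not be told apart there. Pou2f1 averaged 4.62, 3.49 and 3.92 FPKM in naïve, TCR and PI3Kdi cells and 3.58 and 3.06 in CTL with and without IL-2. Cd3e likewise shares 135 exon bases with the antisense transcript Gm48719, whose level was not analysed here.

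Ratios among the chains of the receptor complex were taken in the same way. Cd3g over Cd3d was 1.82, 1.78 and 2.05 in naïve libraries, 1.05, 1.02 and 1.08 in TCR libraries and 1.07, 1.16 and 1.1 in PI3Kdi libraries. The naïve values lay above all others of that table, with log2 differences of −0.84 for TCR and −0.76 for PI3Kdi against naïve, each at p = 0.1 in the exact permutation test. PI3Kdi and TCR ratios overlapped, with a log2 difference of 0.08 at p = 0.2 in that exact test, though within each of the 3 pools the ratio was higher in PI3Kdi cells. In CTL, Cd3g over Cd3d was 1.71 ± 0.175 with IL-2 and 1.49 ± 0.0652 without it (SD, n = 3), and the ranges overlapped. By replicate it was 1.51, 1.83 and 1.79 with IL-2 and 1.48, 1.56 and 1.43 without it, lower without IL-2 at each replicate number. Cd3e over Cd3d was 0.99, 1.67 and 1.56 in CTL with IL-2 and 0.763, 0.794 and 0.686 without it. These values did not overlap, and the log2 difference was −0.88 at p = 0.1 in the exact test. In the first table this ratio averaged 1.31 ± 0.362 in naïve, 1.49 ± 0.32 in TCR and 1.15 ± 0.0259 in PI3Kdi cells (SD, n = 3). All PI3Kdi values lay below all TCR values, with a log2 difference of −0.35 at p = 0.1 in the exact test, from −0.45 to −0.19 with a replicate left out. The log2 difference for TCR against naïve was 0.20, from −0.033 without replicate 1 to 0.50 without replicate 3, and for PI3Kdi against naïve −0.15, turning to 0.057 without replicate 3. Cd247 over Cd3e averaged 0.222 ± 0.00409 in naïve, 0.319 ± 0.0212 in TCR, 0.252 ± 0.0196 in PI3Kdi, 0.254 ± 0.0108 in CTL with IL-2 and 0.208 ± 0.0185 in CTL without it. Its ranges did not overlap in any of the 4 comparisons, each at p = 0.1 in the exact permutation test.

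**Figure D3:**
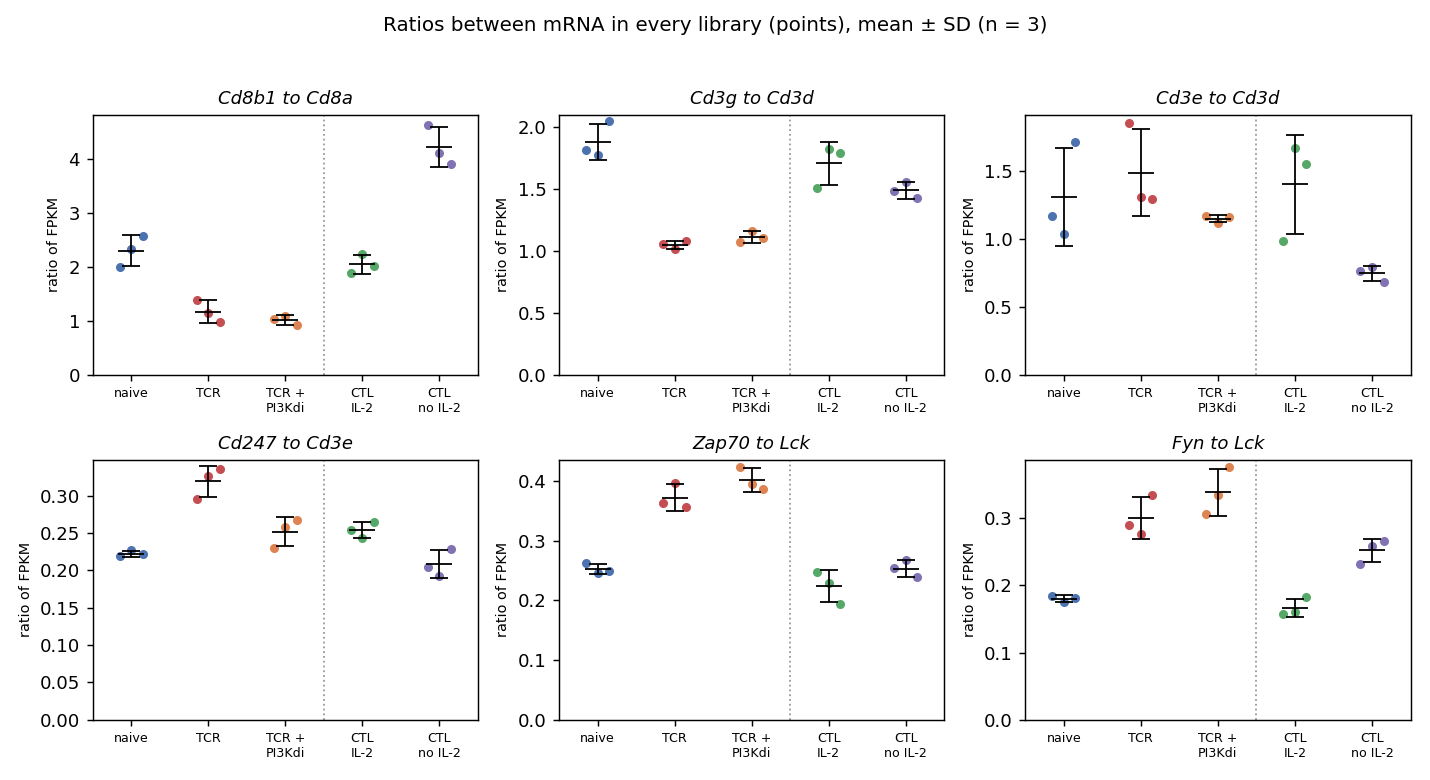
Ratio of FPKM (y axis, from 0) of 6 pairs of genes in every library, with 3 points per group and bars for mean ± SD; the dotted line parts the tables. Cd8b1 over Cd8a and Cd3g over Cd3d are lower in both activated groups than in naïve cells, and Zap70 over Lck and Fyn over Lck are higher.

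Of the kinases, LCK acts first. Lck stood at 509, 559 and 529 FPKM in naïve, 194, 198 and 205 in TCR and 224, 218 and 209 in PI3Kdi libraries. Replicates were close, and each PI3Kdi library lay just above every TCR library. Lck fell 2.67-fold with activation, with a log2 fold change of −1.42 (SE 0.08, adjusted p = 1.2e-08), and PI3Kdi and TCR cells differed by 0.12 (SE 0.08, adjusted p = 0.296), with an interval of −0.04 to 0.29. The CTL levels of Lck were 329, 365 and 370.2 with IL-2 and 371, 351 and 394 without it. The CTL groups overlapped, with a log2 difference of 0.07 (SE 0.08, adjusted p = 0.47) and an interval of −0.12 to 0.26.

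Zap70, encoding the kinase that docks on the phosphorylated chains, stood at 133, 137 and 132 FPKM in naïve, 70.2, 78.7 and 73.2 in TCR and 94.8, 85.8 and 80.6 in PI3Kdi libraries. The groups did not overlap. Zap70 fell 1.81-fold with activation, with a log2 fold change of −0.86 (SE 0.08, adjusted p = 1.64e-06), and was the one member not called lower in TCR or PI3Kdi against naïve cells. The difference of PI3Kdi from TCR cells was 0.23 (SE 0.08, adjusted p = 0.0742), which did not pass. CTL held Zap70 at 81.2, 83.7 and 72 FPKM with IL-2 and 94, 94.2 and 94.1 without it. The 3 libraries without IL-2 were nearly equal, and Zap70 rose 1.19-fold, with a log2 fold change of 0.25 (SE 0.08, adjusted p = 0.015). It did not pass in limma without replicate 2 (adjusted p = 0.0613) or without replicate 3 (0.0946), and over alternatives the adjusted p was 0.00482 to 0.0946.

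Zap70 over Lck was 0.262, 0.245 and 0.249 in naïve, 0.362, 0.397 and 0.357 in TCR and 0.424, 0.394 and 0.386 in PI3Kdi libraries. The activated libraries lay above the naïve ones, with log2 differences of 0.56 and 0.67, each at p = 0.1 in the exact permutation test. In CTL the ratio was 0.224 ± 0.0267 with IL-2 and 0.253 ± 0.0148 without it (SD, n = 3), overlapping. By replicate it was 0.247, 0.23 and 0.195 with IL-2 and 0.253, 0.268 and 0.238 without it, higher without IL-2 at each replicate number. Fyn, a second SRC-family kinase of T cells, was set against Lck in the same way. Fyn over Lck was 0.185, 0.175 and 0.181 in naïve, 0.289, 0.277 and 0.335 in TCR and 0.306, 0.334 and 0.376 in PI3Kdi libraries, and 0.157, 0.161 and 0.182 and 0.232, 0.258 and 0.266 in CTL with and without IL-2. It was higher in both activated groups than in naïve cells (log2 differences 0.73 and 0.90) and higher in CTL without IL-2 (0.60), all with no overlap and at p = 0.1 in the exact test. PI3Kdi and TCR values overlapped for Zap70 over Lck (0.11) and for Fyn over Lck (0.17), both at p = 0.3 in the exact test; within pools the first was higher in PI3Kdi cells in 2 of 3 and the second in all 3.

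Lat, encoding the membrane adaptor that ZAP-70 phosphorylates, stood at 497, 514 and 548 FPKM in naïve, 177, 174 and 233 in TCR and 234, 253 and 228 in PI3Kdi libraries. TCR replicate 3 was the high one of its group and lay within the PI3Kdi range. Lat fell 2.69-fold with activation, with a log2 fold change of −1.43 (SE 0.11, adjusted p = 3.35e-07). The difference of PI3Kdi from TCR cells was 0.30 (SE 0.11, adjusted p = 0.0887), and it passed without replicate 3 (adjusted p = 0.0282 in limma, range over alternatives 0.0282 to 0.565). The CTL levels of Lat were 298, 361 and 361 with IL-2 and 276, 282 and 305 without it. The lowest library with IL-2 lay inside the range without it. Lat was the one member that fell without IL-2, 1.18-fold, with a log2 fold change of −0.24 (SE 0.10, adjusted p = 0.0477). It did not pass in limma under median scaling (adjusted p = 0.136), with no intensity trend (0.0844), without replicate 2 (0.308) or without replicate 3 (0.122), and the range over alternatives was 0.0113 to 0.308.

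The order of the levels differed between groups. In naïve cells Cd8b1 (1246 ± 126 FPKM, mean ± SD, n = 3) was followed by Cd3g (702 ± 73.2), then by Cd8a, Lck, Lat and Cd3e at 543, 532, 519.8 and 477, each overlapping the next, then by Cd3d (376), Zap70 (134) and Cd247 (106). In TCR cells Cd8b1, Lck, Lat and Cd8a overlapped in turn at 209.8, 199, 195 and 181, followed by Cd3e (115), by Cd3g, Cd3d and Zap70, which overlapped in turn at 81.6, 77.7 and 74, and by Cd247 (36.4). Cd3g thus stood second of the 9 in naïve cells and sixth after activation. In PI3Kdi cells Lat, Cd8b1, Lck and Cd8a overlapped in turn at 239, 218, 217 and 215, and so did Cd3e, Cd3g and Cd3d at 158, 153 and 138, ahead of Zap70 (87.1) and Cd247 (39.9).

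The CTL groups had orders of their own. In CTL with IL-2, Lck (355), Lat (340.1) and Cd3g (282) overlapped in turn, as did Cd3e (228) and Cd8b1 (227), ahead of Cd3d (167), Cd8a (111), Zap70 (79) and Cd247 (57.9). Without IL-2, Cd3g led at 616, then Cd8b1 (514), Cd3d and Lck with overlapping ranges (414 and 372), Cd3e (309), Lat (287), Cd8a (122), Zap70 (94.1) and Cd247 (64.3). The highest member was 11.8 times the lowest in naïve cells, 5.76 times in TCR cells, 5.98 times in PI3Kdi cells, 6.13 times in CTL with IL-2 and 9.58 times without it. The coefficient of variation over the 3 libraries had a median of 9.69% among members in naïve cells, 6.78% in TCR, 6.08% in PI3Kdi, 7.81% in CTL with IL-2 and 5.79% without it.

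Other genes of the pathway were called lower more often than higher on activation. A list of 91 such genes (other receptor chains and coreceptors, SRC, TEC and SYK family kinases, adaptors, enzymes downstream of them, and phosphatases and other restraints) had 76 in the first table. In TCR against naïve cells, 7 of the 76 were called higher (9.21%), 41 lower (53.9%) and 28 not called, with a median log2 fold change of −1.07. Over all genes 2818 (25%) were called higher and 2672 (23.7%) lower. By role, 14 of 24 adaptors were called lower and 2 higher, and 11 of 18 downstream enzymes lower and 1 higher. Of 24 phosphatases and restraints, 12 were called lower and 1 higher, and of 8 kinases 3 lower and 2 higher. Of 2 other receptor chains and coreceptors, 1 was called lower and 1 higher.

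The largest falls were in Fyb, an adaptor of integrin activation, from 210.0 ± 32.7 to 9.44 ± 2.16 FPKM, and in Dgka, a kinase that converts diacylglycerol to phosphatidic acid, from 470.0 ± 30.03 to 21.2 ± 1.92 (SD, n = 3). Rasa3, a RAS GTPase-activating protein, fell from 149.7 ± 8.0 to 7.46 ± 1.01. The adaptor genes Sit1 and Sla2 fell from 65 ± 3.67 to 3.67 ± 0.396 and from 51 ± 1.29 to 3.29 ± 0.654. The 5 log2 fold changes were −4.48, −4.46, −4.32, −4.11 and −3.93, all below that of Cd3g. The largest rises were in the tyrosine kinase Fes, from 0.177 ± 0.0651 to 12.5 ± 4.33 FPKM, the phosphatase Ptprj, from 0.393 ± 0.0379 to 7.05 ± 1.73, the exchange factor Vav2, from 1.62 ± 0.104 to 7.96 ± 1.09, and the costimulatory receptor Cd28, from 34.2 ± 4.52 to 118 ± 18.3. Gab2, an adaptor, was also called higher; it is listed at 0 in the 3 naïve libraries and stood at 0.28, 0.17 and 0.22 in the TCR libraries, so no fold is given.

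Several partners of the members were named whatever their values. Ptprc, encoding CD45, the phosphatase that activates LCK, fell from 494 ± 23.6 to 191 ± 5.35 FPKM with activation, with a log2 fold change of −1.37 (SE 0.08, adjusted p = 2.14e-08) in limma. Plcg1, encoding the phospholipase recruited by LAT, fell from 78.6 ± 5.04 to 16.6 ± 1.3, with a log2 fold change of −2.23 (SE 0.11, adjusted p = 5.94e-09). Lcp2, encoding the adaptor SLP-76, fell from 129.8 ± 14.3 to 61.1 ± 1.25. Fyn and Csk, the kinase that restrains LCK, fell by less than 2-fold, from 95.9 ± 1.92 to 59.8 ± 7.66 (−0.69) and from 230 ± 18.9 to 143 ± 4.4 (−0.69).

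With PI3Kdi against TCR cells, 9 of the 76 genes were called higher (11.8%), 3 lower (3.95%) and 64 not called, with a median of 0.15. Over all genes 342 (3.04%) were called higher and 237 (2.1%) lower. Dgka rose furthest, from 22.2, 22.4 and 19 FPKM in TCR to 97, 119 and 91 in PI3Kdi libraries. The groups were far apart and both were below the naïve libraries, and the log2 fold change was 2.26 (SE 0.11, adjusted p = 1.41e-06) in limma. Sla, which encodes an adaptor that lowers the TCR on the cell surface, rose from 19.6 ± 1.43 to 75 ± 24.1. Malt1, a protease of NF-κB signalling, rose from 46.5 ± 7.31 to 132 ± 24, the exchange factor Vav3 from 1.86 ± 0.528 to 4.77 ± 0.482 and the phosphatase Ptpn22 from 28.3 ± 3.37 to 67.6 ± 11.5. The 3 genes called lower were Trat1, a receptor-associated adaptor, from 4.46 ± 2.02 to 1.34 ± 0.712, Fes, from 12.5 ± 4.33 to 5.72 ± 0.323, and the adaptor Grap, from 48.1 ± 5.7 to 23.5 ± 4.11. Of the partners, Plcg1 passed the adjusted p without the replicate block with a log2 fold change of 0.37 (SE 0.11, adjusted p = 0.0397) but not with it (adjusted p = 0.0596). Fyn did not pass without the block with a log2 fold change of 0.30 (SE 0.10, adjusted p = 0.0568) and passed with it (adjusted p = 0.0474). Ptprc, Lcp2 and Csk did not pass, at 0.24, 0.10 and 0.06.

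In PI3Kdi against naïve cells, 8 of the 76 genes were called higher (10.5%), 34 lower (44.7%) and 34 not called, with a median of −0.94. Over all genes 2659 (23.6%) were called higher and 2404 (21.3%) lower. Beside the genes already named, Trat1 was lower, at 51.8 ± 7.78 FPKM in naïve and 1.34 ± 0.712 in PI3Kdi cells, and the adaptor Sh3bp2 was higher, at 6.16 ± 1.27 and 25.8 ± 1.18. Cd28 stood at 238 ± 17.2 in PI3Kdi cells, and its log2 fold change against naïve cells was 2.80. The falls in Fyb, Sit1, Sla2 and Rasa3 were −4.28, −3.96, −3.83 and −3.47 on the log2 scale, and the rises in Fes, Ptprj and Vav2 were 4.42, 3.23 and 2.00. Ptprc (−1.13) and Plcg1 (−1.87) were called lower, while Lcp2 (−0.98), Fyn (−0.39) and Csk (−0.62) were past the adjusted p only. Cd4 was not analysed here in the first table.

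In CTL without against with IL-2, 78 of the 91 genes were in the table. Of these, 13 were called higher (16.7%), 4 lower (5.13%) and 61 not called, with a median of 0.39. Over all genes 1605 (14.3%) were called higher and 1561 (13.9%) lower. Dgka again rose furthest of the list, from 49.7, 45.9 and 47.7 FPKM with IL-2 to 296, 296 and 346 without it. The groups were far apart, with a log2 fold change of 2.70 (SE 0.08, adjusted p = 6.19e-08) in limma. Cd4 was called higher at very low levels, 0.25, 0.39 and 0.05 with IL-2 and 1.92, 1.36 and 0.92 without it. Cd5, a receptor that restrains TCR signals, rose from 10.1 ± 2.32 to 41.6 ± 0.55, Grap from 71.3 ± 14.2 to 260.0 ± 3.16 and Sla from 26.5 ± 6.55 to 88.3 ± 5.73 (SD, n = 3). The 4 that fell were Fcer1g, a signalling chain related to ζ, from 47 ± 12.2 to 9.48 ± 2.56, Sh3bp2, from 28.6 ± 4.82 to 6.88 ± 0.967, the TEC kinase Txk, from 18.3 ± 4.36 to 6.13 ± 2.19, and Rasa2, a RAS GTPase-activating protein, from 12.3 ± 1.16 to 4.87 ± 0.601. Plcg1 rose from 34.2 ± 2.29 to 86.7 ± 7.63, with a log2 fold change of 1.34 (SE 0.09, adjusted p = 1.48e-06). Fyn rose by less than 2-fold (0.67), and Ptprc (0.19), Lcp2 (−0.05) and Csk (−0.19) did not pass.

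Genes whose pattern was most like that of a member were found by Pearson's r of log2(FPKM + 0.1) over the 9 libraries of the first table, among 10072 genes with a mean of at least 1 FPKM. These libraries fall into 3 groups, so r is given as a description with no p. For Cd8a the nearest were Srr, Nr3c1 and Col23a1 (r = 0.998 each), and for Cd8b1 they were Fam40a, Zfp3 and Gnptg (0.998 to 0.999). Cd3d was nearest to Ypel5, Tmx4 and Ubac2 (0.995 each), and Cd3g to Hcst, Ypel5 and Rgs10 (0.998 to 0.999), so Ypel5 was on both lists. Ypel5 averaged 17.4, 1.05 and 2.67 FPKM in naïve, TCR and PI3Kdi cells, and Hcst 192, 9.52 and 22.3. Cd3e was nearest to Dennd1c, Zbtb4 and C630004H02Rik (0.997 to 0.998), and Cd247 to Git2, Ppp1r9b and Stxbp2 (0.997 to 0.998). Lck was nearest to 1110038D17Rik, 1700020O03Rik and Hvcn1 (0.998 each), Zap70 to Zfp354c, Stx4a and Fbxw4 (0.990 to 0.992), and Lat to Zfp365, Raver2 and Nudt16 (0.993 to 0.998). Among the members themselves r was 0.994 for Cd3d with Cd3g and for Cd8a with Lck, and lowest, 0.922, for Cd8b1 with Cd3d.

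The members lie on 5 chromosomes, and several are neighbours. In RefSeq annotation of GRCm38.p6, Cd3g (chr9:44969572-44980431, minus strand), Cd3d (chr9:44981769-44987052, plus strand) and Cd3e (chr9:44998735-45009663, minus strand) stand in a row on chromosome 9. Cd3g and Cd3d are head to head with 1337 bases between their starts, and Cd3e ends 11682 bases from Cd3d. Cd8b1 (chr6:71322788-71337492) and Cd8a (chr6:71373427-71379171) follow each other on the plus strand of chromosome 6, with 35934 bases between them. Cd247 (chr1:165779952-165871153, plus strand) and Zap70 (chr1:36761798-36782821, plus strand) are on chromosome 1, Lck (chr4:129548344-129573641, minus strand) on chromosome 4 and Lat (chr7:126363827-126369705, minus strand) on chromosome 7. Lck and Lat each hold a microRNA gene on their own strand, Mir8119 over 25 and Mir7058 over 75 exon bases. The neighbours Cd3g and Cd3d moved in the same direction in each of the 4 comparisons, by −3.10 and −2.26, 0.91 and 0.83, −2.19 and −1.44, and 1.13 and 1.32 on the log2 scale. The neighbours Cd8b1 and Cd8a stood at 1.18 and 0.13 in CTL without against with IL-2, and their ratio is given with the coreceptor.

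**Figure D4:**
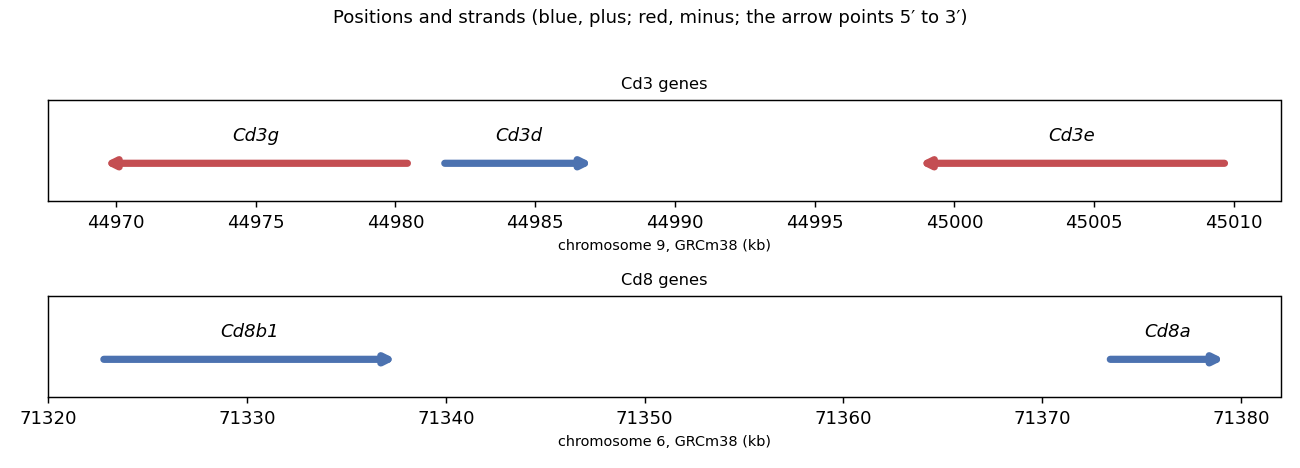
Positions in GRCm38 (x axis, kb) of the Cd3 genes on chromosome 9 and the Cd8 genes on chromosome 6, as arrows pointing 5′ to 3′, blue for the plus and red for the minus strand. Cd3g and Cd3d point away from each other across a gap of 1337 bases, and the Cd8 genes point the same way.

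Promoter sequences of RefSeq, GRCm38.p6, were matched for 8 of the 9 members, the other being Cd8b1. The starts are those listed with these sequences, and some lie inside the gene as placed above. The only stretch of Cd247, chr1:165788431-165788680, lies wholly inside its gene. Those of Lat and Cd3e reach 137 and 52 bases into theirs, and Zap70 and Lck have further starts inside the gene. The 250 bases before each listed start were searched on both strands for short runs of letters known from the sites of T cell factors: TGTGGT for the RUNX family, AGGAAG for the ETS family, CTTTGA for TCF and LEF, AGATAA for the family of GATA3, and the E-box CAGCTG. Among 32851 promoters of this length, 14% held TGTGGT, 29.5% AGGAAG, 13.8% CTTTGA, 9.99% AGATAA and 13% CAGCTG. Counting every start listed for a gene, AGGAAG was in Cd247, Cd3d, Cd3e, Lat, Lck and Zap70, TGTGGT in Lck and Zap70, CTTTGA in Cd3d and Zap70, AGATAA in Cd3g and CAGCTG in none of the 8. The only AGGAAG of Lat lies in the 137 bases inside the gene, and the 113 bases before the gene held none. TGTGGT of Zap70 comes from a further start inside the gene. The shares are per promoter and the members are counted per gene over all listed starts, so they are not like for like. A match is a run of letters and not a binding site. The promoters of Cd3g and Cd3d are shown because these genes lie head to head and moved together. That of Cd3g is chr9:44980432-44980681 on the minus strand, and the capitals mark AGATAA. That of Cd3d is chr9:44981536-44981768 on the plus strand, less the 17 bases nearest the start, which lie in an annotated transcript; capitals mark AGGAAG, read on the other strand as CTTCCT, and CTTTGA, once as such and once on the other strand as TCAAAG.
Cd3g promoter: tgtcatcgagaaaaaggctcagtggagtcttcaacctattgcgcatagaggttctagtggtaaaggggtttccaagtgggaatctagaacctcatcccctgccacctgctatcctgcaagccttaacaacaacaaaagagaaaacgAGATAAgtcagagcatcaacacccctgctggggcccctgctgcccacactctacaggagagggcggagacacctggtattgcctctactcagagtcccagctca
Cd3d promoter: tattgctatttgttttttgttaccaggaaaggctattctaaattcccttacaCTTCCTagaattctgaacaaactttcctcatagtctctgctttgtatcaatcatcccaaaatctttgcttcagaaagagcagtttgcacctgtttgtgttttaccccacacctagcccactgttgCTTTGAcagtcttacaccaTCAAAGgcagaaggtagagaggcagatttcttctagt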

How the data were processed

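The authors deposited FPKM per gene in 2 tables. For the first the submitters' processing notes and methods name STAR 2.5.2b, mm10, Subread 1.5.1 and edgeR (low-count filter, TMM scaling); for CTL the later steps were not stated. Blank cells of the first table, 46 to 252 per library and 0 in members, were read as 0. Reads per library were not given in the sources used here, and the lowest values gave no stable step in every library, so depth is unknown and no interval or floor was taken from it.

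limma 3.58.1 (R 4.3.3) fitted log2(FPKM + 0.1) once per table, with an intensity trend and no block, and p-values were adjusted over the table by Benjamini-Hochberg; calls needed an adjusted p under 0.05 and a fold change above 2 or below 0.5. The fits were also run on simulated data, whose outcome is not given here. Ratios were compared by two-sided exact permutation tests in Python 3.11.15. Titles, replicate numbers and growth protocols gave the groups, and by the labels same-numbered libraries of the first table share a pool. Across genes, deviations from group means of same-numbered libraries correlated at 0.27, 0.20 and 0.51 for TCR with PI3Kdi, −0.14, 0.23 and −0.18 for naïve with TCR, −0.015, −0.017 and 0.030 for naïve with PI3Kdi, and 0.12, 0.17 and 0.26 for the CTL groups, whose pairing rests on these values alone.

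Members and gene lists were chosen with earlier results of these data known. Beside the members, the text names at most 5 rises and 5 falls per comparison, the largest called among the pathway lists, with Fyn, Lcp2, Plcg1, Ptprc, Csk and Cd4 throughout, and the 3 genes most like each member; some planned genes and marker sums are not reported here. Member pairs given by r, Pou2f1 and Gm48719 were picked after values or annotation were seen. Alternatives were a pseudocount of 1 or 0.01, a minimum mean of 1 FPKM, median scaling, the replicate block, no intensity trend, each replicate left out, only the groups compared, and a fold limit of 1.5 or none; for ratios, the block, each replicate left out and a pseudocount of 0.1.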

Additional observations from a re-analysis of the deposited data

How the results depend on the processing

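Of 351 member log2 fold changes recomputed under alternatives, 350 kept their direction and their side of the thresholds (2-fold and adjusted p together). The exception was Cd8b1 in PI3Kdi against TCR, −0.026 without replicate 2, where 0.05 with all replicates had not passed; the cause was not tested. With the replicate block, reflecting the pairing, 5495, 591, 5071 and 3168 genes were called for TCR against naïve, PI3Kdi against TCR, PI3Kdi against naïve and CTL, against 5490, 579, 5063 and 3166 without it; the block moved Plcg1 and Fyn across the adjusted p in PI3Kdi against TCR and changed no call among the genes named. With no fold limit, by construction, 9096, 1975, 8906 and 8056 genes passed, and 3 members in PI3Kdi against TCR and 6 in CTL; at a limit of 1.5, 1120 genes and 2 members passed in PI3Kdi against TCR and 5657 genes in CTL. In PI3Kdi against TCR, 311 genes were called at a pseudocount of 1 and 323 to 574 when a replicate was left out, the lowest without replicate 2; the cause was not tested. Of 120 ratio values 117 moved by less than the spread between replicates. The other 3 moved when a replicate was left out, giving log2 differences of −1.21 to −0.78 (Cd8b1 over Cd8a, TCR against naïve), 0.92 to 1.13 (the same ratio in CTL) and 0.026 to 0.11 (Cd3g over Cd3d, PI3Kdi against TCR); the cause was not tested. Members past the adjusted p alone ranged from 2 to 3 in PI3Kdi against TCR, where Cd3e and Lat crossed it, and from 4 to 6 in CTL, where Zap70 and Lat did. Depth is unknown; the lowest member level in any library was 34.1 FPKM, of Cd247 in TCR cells.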
